A study of Mus musculus with 6 samples.

Results

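The hypoxia-sensing and angiogenic factors described here are 10 genes that adipose tissue uses to read its oxygen supply and to direct the growth of its vessels. They are the oxygen-regulated transcription factor subunits Hif1a and Epas1, the prolyl hydroxylases Egln1 and Egln3, the growth factors Vegfa, Vegfb, Vegfc and Pgf, and the angiopoietins Angpt1 and Angpt2. The genes were chosen by symbol among the 19938 genes with a probe set of their own on the array, and each of the 10 had exactly 1 such probe set. The arrays profiled the epididymal fat pad (eWAT), a visceral depot of white adipose tissue, of male C57BL6/J mice that entered a high-fat diet (HFD) at an age of 6 weeks and stayed on it for 12 weeks. A recombinant adeno-associated virus (rAAV) of the engineered Rec2 serotype had been injected into the fat pads, and it carried either yellow fluorescent protein as control (rAAV-YFP) or Lmo3, a LIM-domain transcriptional cofactor (rAAV-Lmo3). Each group held 3 Affymetrix Gene ST arrays, each for a separate pool of RNA from 2 mice. Both vectors used the chicken beta-actin promoter with a CMV enhancer, which is not restricted to adipocytes, and all pools came from obese mice, so no lean tissue stands beside these values.

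Cells sense oxygen through the stability of a protein rather than through a transcript. The subunits HIF1α, encoded by Hif1a, and EPAS1 are made continuously, and in the presence of oxygen the EGLN enzymes hydroxylate them so that the VHL ubiquitin ligase can mark them for degradation. When oxygen falls, the subunits pair with ARNT and switch on genes for glycolysis, for lower oxygen use and for vessel growth, with Vegfa and Egln3 among the classical targets. VEGF ligands act on the endothelial receptors FLT1, KDR and FLT4, whereas the angiopoietins act on TEK, where ANGPT1 steadies vessels and ANGPT2 often opposes it. In obesity, enlarging adipocytes can outgrow their vessels, and HIF1α in obese fat has been linked with fibrosis and inflammation. Transcript levels of Hif1a and Epas1 are therefore no readout of HIF activity by themselves.

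Of the 10 genes, 9 were bright enough to test, and Egln3 fell under the intensity limit of 114 below which the dimmest 40% of genes were left out. None of the 9 passed limma, a moderated linear model fitted to all 11963 tested genes, after Benjamini-Hochberg adjustment, with adjusted p between 0.970 and 0.993. The same was true of all tested genes, 0 of which (0%) passed. Angpt1 and Hif1a were higher in rAAV-Lmo3 eWAT at an unadjusted p under 0.05 in limma and with groups that did not overlap, as 2 of 9 members. Angpt1 had a control mean below the limit for dim genes (log2 6.79 against 6.83) and entered the test only through its rAAV-Lmo3 values, so its place in that count is a description and no support. Among all tested genes 2.27% were higher and 2.40% lower at that level, 4.66% together, while groups did not overlap for 4.53% in the higher and 5.95% in the lower direction. With 9 genes these shares rest on very few members. Their log2 differences, always rAAV-Lmo3 minus rAAV-YFP, lay above 0 for 4 and below 0 for 5, with a median of -0.03 against 0.00076 over all tested genes.

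**Figure D1:**
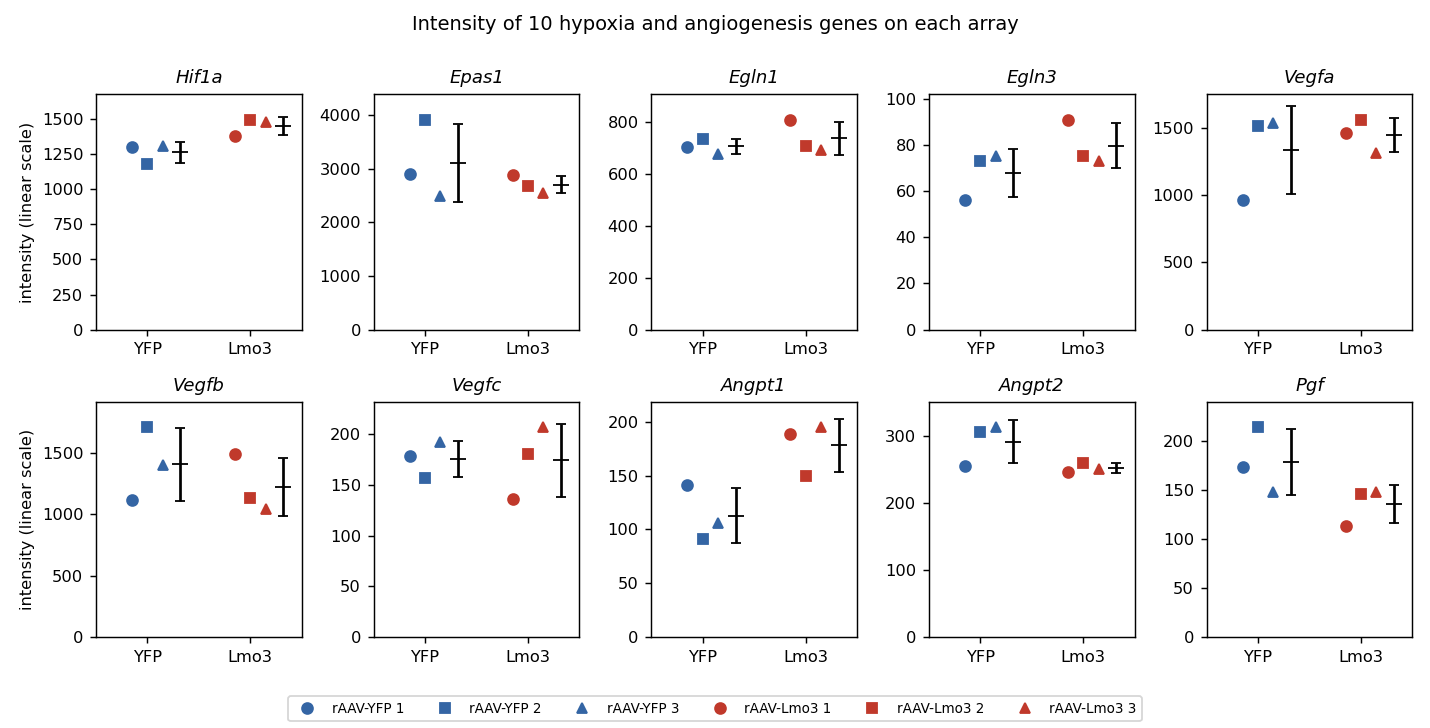
Intensity on the linear scale (vertical axis, from 0) of the 10 genes on each array, with blue for rAAV-YFP, red for rAAV-Lmo3, symbols for the replicate number and black bars for the group mean ± SD (n = 3 pools per group). The groups do not overlap for Hif1a, between 1178 and 1304 against 1377 to 1496, and for Angpt1, between 91 and 141 against 150 to 195, and they overlap or meet for the other 8 genes.

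Sequence upstream of the genes was searched for the core letters of the hypoxia response element, which HIF dimers bind, in the 250 bases before the furthest upstream start that RefSeq lists in build GRCm38.p6. The letters were ACGTG or GCGTG on either strand, so that CACGT and CACGC on the printed strand count too, and CACGTG holds overlapping matches. Such letters are common and stood in 38.6% of the 32851 windows of this length in the table. A window was listed for 7 of the 10 genes, and 5 of these held at least 1 match. The windows of the oxygen-sensing genes Hif1a, Egln1 and Egln3 are printed 5′ to 3′ because these genes form the core of the pathway, and that of Vegfa because it is the best known target gene of HIF. Capitals mark the matched letters.
Hif1a, chr12:73907617-73907866, plus strand: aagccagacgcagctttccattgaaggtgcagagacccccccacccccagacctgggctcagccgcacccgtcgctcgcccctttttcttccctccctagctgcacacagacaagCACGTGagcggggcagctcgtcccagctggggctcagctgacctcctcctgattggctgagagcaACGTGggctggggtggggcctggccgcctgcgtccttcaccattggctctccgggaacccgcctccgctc
Egln1, chr8:124949255-124949504, minus strand: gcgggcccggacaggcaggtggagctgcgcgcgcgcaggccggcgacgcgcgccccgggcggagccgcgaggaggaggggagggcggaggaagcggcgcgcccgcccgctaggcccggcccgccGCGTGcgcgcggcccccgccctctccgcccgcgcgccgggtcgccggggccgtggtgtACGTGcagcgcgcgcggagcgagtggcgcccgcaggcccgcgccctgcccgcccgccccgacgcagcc
Egln3, chr12:54203875-54204124, minus strand: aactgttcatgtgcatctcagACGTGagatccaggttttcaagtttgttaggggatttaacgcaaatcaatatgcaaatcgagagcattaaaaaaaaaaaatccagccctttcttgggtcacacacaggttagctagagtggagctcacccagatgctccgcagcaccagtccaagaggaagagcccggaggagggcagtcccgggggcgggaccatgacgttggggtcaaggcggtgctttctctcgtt
Vegfa, chr17:46032378-46032627, minus strand: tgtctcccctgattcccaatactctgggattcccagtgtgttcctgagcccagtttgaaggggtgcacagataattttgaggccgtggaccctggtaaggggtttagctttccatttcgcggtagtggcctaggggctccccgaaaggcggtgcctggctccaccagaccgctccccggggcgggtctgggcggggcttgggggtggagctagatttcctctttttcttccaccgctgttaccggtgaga
Hif1a has matches that begin 135, 134 and 70 bases before its start, of which the first pair overlap. Egln1 has matches at 126 and 68 bases and Egln3 at 229 bases, while the Vegfa window has none, although a second window listed for Vegfa does. A match of letters describes the sequence and does not show that HIF binds there. Sequence beyond the 250 bases was not searched, so a window without a match does not show that a gene lacks the element.

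Hif1a encodes the subunit that responds to oxygen in nearly all cells. Its intensities were 1302, 1178 and 1304 in the control pools rAAV-YFP 1, 2 and 3, against 1377, 1496 and 1477 in rAAV-Lmo3 1, 2 and 3. Values below follow this order. All rAAV-Lmo3 pools thus lay above all rAAV-YFP pools. The log2 difference was small, at 0.20 ± 0.08 (SE, n = 3 pools per group) or 1.15-fold, and the spread within both groups was tight. By limma its unadjusted p was 0.0457 and its adjusted p 0.970. Leaving out single arrays kept the difference between 0.15 and 0.24, but the unadjusted limma p was above 0.05 in 5 of these 6 cases, at most 0.131, and under it only without rAAV-Lmo3 1.

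Epas1, the HIF subunit that is abundant in endothelial cells and adipocytes, did not share this direction. It read 2901, 3915 and 2494 in rAAV-YFP and 2874, 2670 and 2553 in rAAV-Lmo3. A single control pool, rAAV-YFP 2, stood far above all others, while the remaining 5 arrays overlapped. The log2 difference of -0.18 ± 0.17 (95% confidence interval -0.58 to 0.22) was 0.00 without rAAV-YFP 2.

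Egln1 encodes the main oxygen sensor of most cells, and its transcript was the steadiest of the sensing genes in the control pools. Its intensities were 706, 737 and 679 in rAAV-YFP and 811, 710 and 694 in rAAV-Lmo3. Array rAAV-Lmo3 1 was the highest and the others interleaved. The log2 difference was 0.06 ± 0.09, with a 95% confidence interval of -0.16 to 0.28, and -0.01 without rAAV-Lmo3 1. Egln3, a hydroxylase that HIF itself induces, was dim, with intensities of 56, 73 and 75 in rAAV-YFP and 91, 75 and 73 in rAAV-Lmo3. Only rAAV-YFP 1 at the low end and rAAV-Lmo3 1 at the high end lay apart from the others, at 73 to 75. Its log2 difference was 0.23 ± 0.17 (SE, n = 3 pools per group), untested because of its dimness, and 0.10 without rAAV-YFP 1 or 0.13 without rAAV-Lmo3 1.

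Further parts of the oxygen-sensing machinery were read from a list of partners and regulators of HIF. Of 17 such genes, 16 had a probe set of their own and 15 were tested, with 6 log2 differences above 0 and 9 below and a median of -0.03. Among the 9 below, Arnt2 passed the limit for dim genes only through its rAAV-YFP values, with an rAAV-Lmo3 mean of log2 6.826 against 6.833. At the unadjusted level 0 were higher and 1 lower by limma, or 6.67% against 4.66% of all genes, which is near the background and no result about the list, and 0 passed after adjustment. The lower gene was Cited2, which competes with HIF for the coactivators CREBBP and EP300. It read 973, 1378 and 869 in rAAV-YFP and 811, 656 and 847 in rAAV-Lmo3, so the groups did not overlap. Its log2 difference was -0.46 ± 0.19 (adjusted p = 0.970 by limma), and -0.26 without rAAV-YFP 2. The coactivator genes differed by -0.19 ± 0.11 (Crebbp) and -0.17 ± 0.11 (Ep300), and these values moved to -0.11 for Crebbp without rAAV-YFP 2, to -0.30 without rAAV-YFP 3, and to -0.09 for Ep300 without rAAV-Lmo3 1. Small differences were seen for the HIF dimerization partner Arnt (-0.10 ± 0.09), the ubiquitin ligase subunit Vhl (0.00 ± 0.15), the hydroxylase Egln2 (0.09 ± 0.10) and the asparagine hydroxylase Hif1an (0.11 ± 0.09). Without rAAV-YFP 2 the values of Arnt, Egln2 and Hif1an were -0.05, 0.05 and 0.06. Hif3a, whose product can restrain HIF, was too dim to test at 71, 82 and 66 in rAAV-YFP and 63, 62 and 60 in rAAV-Lmo3, where the groups did not overlap.

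**Figure D2:**
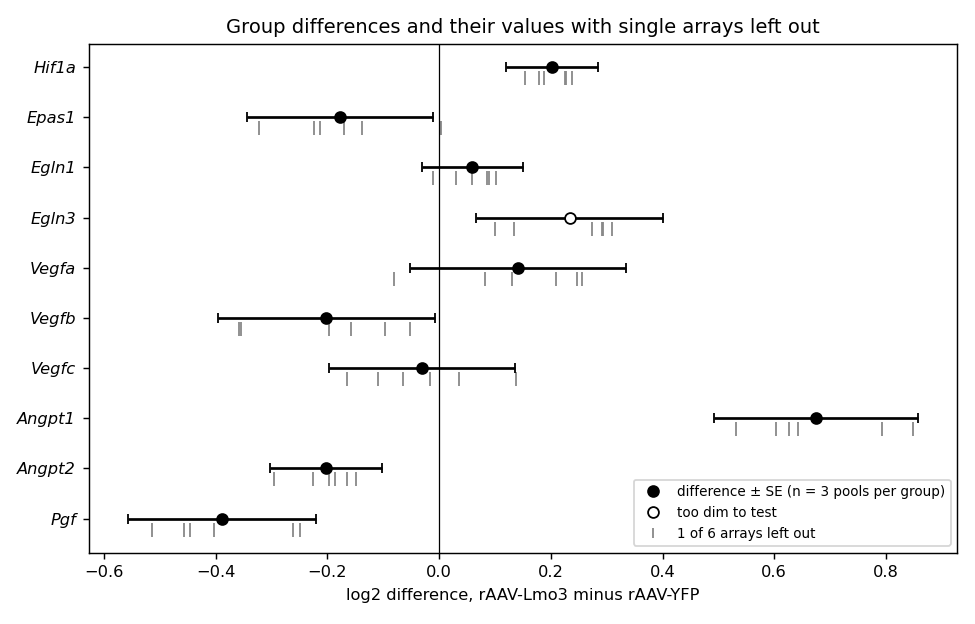
Log2 difference of each gene, rAAV-Lmo3 minus rAAV-YFP (horizontal axis, log2 units), with SE as bars (n = 3 pools per group), and grey ticks for the same difference with 1 of the 6 arrays left out. Angpt1 stays between 0.53 and 0.85 and Hif1a between 0.15 and 0.24, whereas Epas1, Egln1, Vegfa and Vegfc cross 0. The open symbol marks Egln3, which was too dim to test.

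Vegfa, the principal growth factor of blood vessels and a product of adipocytes and macrophages, did not differ beyond its spread. Its intensities were 962, 1516 and 1535 in rAAV-YFP and 1463, 1564 and 1312 in rAAV-Lmo3. Apart from the low pool rAAV-YFP 1, the arrays of both groups covered the same range. The log2 difference was 0.14 ± 0.19, with a 95% confidence interval of -0.32 to 0.60, and it turned to -0.08 without rAAV-YFP 1. The interval is too wide to tell an unaltered level from a moderate difference in either direction.

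Vegfb, which has been linked with fatty acid transport across the endothelium more than with vessel growth, read 1116, 1708 and 1396 in rAAV-YFP and 1486, 1131 and 1039 in rAAV-Lmo3. Its highest values came from rAAV-YFP 2 and rAAV-Lmo3 1, with 0.45 and 0.46 more on the log2 scale than the rest of their own groups. The group difference of -0.20 ± 0.19 (95% confidence interval -0.67 to 0.26) was -0.05 without rAAV-YFP 2 and -0.35 without rAAV-Lmo3 1.

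Vegfc, a lymphatic growth factor, read 179, 157 and 192 in rAAV-YFP and 136, 180 and 207 in rAAV-Lmo3, and its lowest values came from the same pair of arrays. Its log2 difference was -0.03 ± 0.17 (95% confidence interval -0.43 to 0.37), and 0.14 without rAAV-Lmo3 1. Pgf, a placental growth factor that binds FLT1, lay on the lower side with 173, 214 and 148 in rAAV-YFP and 113, 146 and 148 in rAAV-Lmo3. The highest rAAV-Lmo3 value equalled the lowest control value. Its log2 difference was -0.39 ± 0.17, or 1.31-fold lower, with an unadjusted p of 0.0556 and an adjusted p of 0.970 by limma. Without rAAV-YFP 2 the difference was -0.25, and without both rAAV-YFP 2 and rAAV-Lmo3 1 it was -0.12.

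Angpt1 showed the largest difference of the 10 genes. Its product, made by pericytes and other perivascular and stromal cells, activates TEK and keeps vessels quiescent. The intensities were 141, 91 and 106 in rAAV-YFP and 189, 150 and 195 in rAAV-Lmo3, so that every rAAV-Lmo3 pool lay above every control pool, with a narrow gap between rAAV-YFP 1 and rAAV-Lmo3 2. The log2 difference was 0.67 ± 0.18 (SE, n = 3 pools per group), or 1.60-fold, with a 95% confidence interval of 0.24 to 1.11. The control mean of log2 6.79 lay under the limit of 6.83 for dim genes and the rAAV-Lmo3 mean of 7.47 above it, so that Angpt1 was tested only because it was high in rAAV-Lmo3, and it was not tested when the dimmest 60% of genes were left out. By limma its unadjusted p was 0.00840 and its adjusted p 0.970, and with no filter on dim genes the unadjusted p was 0.00826. Leaving out single arrays gave differences from 0.53 to 0.85, and leaving out both rAAV-YFP 2 and rAAV-Lmo3 1 gave 0.48.

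Angpt2, which endothelial cells release when vessels are remodelled, lay on the other side. It read 256, 307 and 314 in rAAV-YFP and 247, 261 and 251 in rAAV-Lmo3, where the 3 values lay close together and the control pool rAAV-YFP 1 fell among them. The log2 difference was -0.20 ± 0.10 (95% confidence interval -0.44 to 0.04), with an unadjusted p of 0.0847 and an adjusted p of 0.970 by limma. Without rAAV-YFP 1 it was -0.30. Within each array, log2 Angpt1 minus log2 Angpt2 was set against its rAAV-YFP mean, a measure chosen after the values were seen and therefore not tested. It was 0.53, -0.36 and -0.17 in the control pools and 1.01, 0.59 and 1.03 in rAAV-Lmo3, and the groups did not overlap, with rAAV-YFP 1 just below rAAV-Lmo3 2. The group means differed by 0.88, which carries the same limit of a dim Angpt1 control level.

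**Figure D3:**
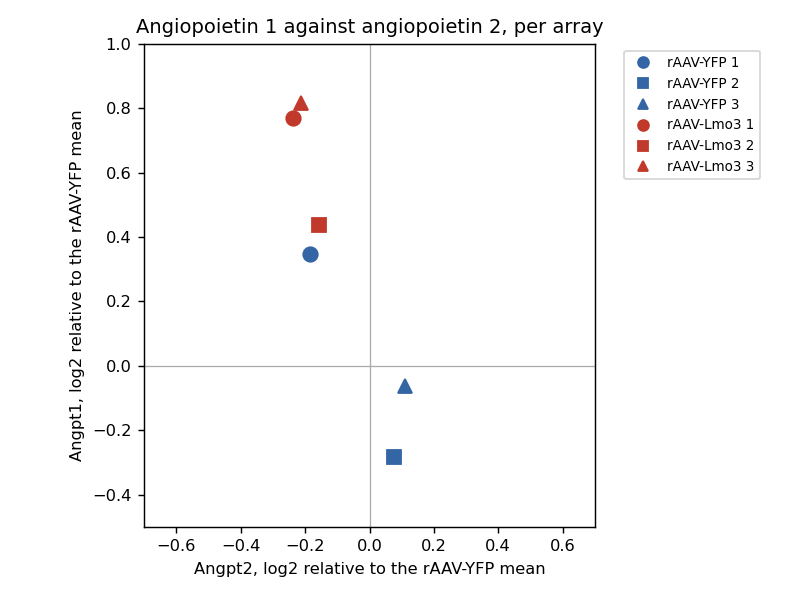
Angpt1 (vertical axis) against Angpt2 (horizontal axis) on each array, both as log2 intensity minus the control mean, with blue for rAAV-YFP and red for rAAV-Lmo3. The rAAV-Lmo3 arrays lie at the upper left, with higher Angpt1 and lower Angpt2 than the control mean, and rAAV-YFP 1 lies nearest to them.

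The receptors of these ligands showed no difference of the size seen for Angpt1. Of 12 receptors and further ligands, 11 were tested, with 1 log2 difference above 0 and 10 below (Kdr and Vegfd turned when arrays were centred on their medians) and a median of -0.07. At the unadjusted level 1 was higher and 0 lower by limma, or 9.09% against 4.66% of all genes, and 0 passed after adjustment. This single gene, Angptl1, also passed the limit for dim genes only through its rAAV-Lmo3 values, with a control mean of log2 6.71. The angiopoietin receptor Tek differed by -0.07 ± 0.11 and its partner Tie1 by -0.28 ± 0.14, or -0.16 without rAAV-YFP 2. Of the VEGF receptors, Flt1 differed by -0.22 ± 0.14 (-0.07 without rAAV-YFP 2), Kdr by -0.01 ± 0.20, Flt4 by -0.15 ± 0.13 (-0.06 without rAAV-Lmo3 1) and the coreceptor Nrp1 by -0.02 ± 0.08. The lymphatic ligand Vegfd differed by -0.02 ± 0.20 and Angptl4, an inhibitor of lipoprotein lipase, by -0.10 ± 0.22. Angptl1, a secreted relative of the angiopoietins, read 128, 79 and 114 in rAAV-YFP and 117, 180 and 251 in rAAV-Lmo3. Its groups overlapped, and its log2 difference of 0.73 ± 0.30 (adjusted p = 0.970 by limma) ranged from 0.47 without rAAV-Lmo3 3 to 1.02 without rAAV-Lmo3 1.

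Transcripts of genes that HIF is known to activate gave a mixed picture. Of 34 such genes 32 had a probe set of their own and 30 were tested, with 17 log2 differences above 0 and 13 below and a median of 0.07. At the unadjusted level 5 were higher and 1 lower by limma, together 20% against 4.66% of all genes, and 0 passed after adjustment. The 5 on the higher side act in glycolysis, in mitochondria or at lipid droplets. Hilpda, which inhibits the lipase ATGL at lipid droplets, read 218, 180 and 238 in rAAV-YFP and 307, 298 and 335 in rAAV-Lmo3, a log2 difference of 0.57 ± 0.12. Pfkl, the liver-type phosphofructokinase of glycolysis, read 465, 419 and 483 against 593, 623 and 571, a difference of 0.39 ± 0.09. Higd1a, a small protein of the mitochondrial inner membrane, differed by 0.45 ± 0.13, and by 0.25 when its 2 probe sets were averaged. Pdk1, a kinase that inhibits pyruvate dehydrogenase in mitochondria, differed by 0.40 ± 0.15 with overlapping groups. Pgk1, a glycolytic kinase, differed by 0.30 ± 0.11, also as the mean of its 3 probe sets, and by 0.17 without both rAAV-YFP 2 and rAAV-Lmo3 1.

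Other HIF targets pointed elsewhere. Ndrg1, a stress-responsive gene, was the 1 on the lower side at the unadjusted level, with 995, 1191 and 1020 in rAAV-YFP and 903, 831 and 908 in rAAV-Lmo3 and a log2 difference of -0.28 ± 0.10. The vasodilator peptide gene Adm differed by -0.31 ± 0.16, leptin (Lep) by -0.28 ± 0.12 with groups that did not overlap, and the glucose transporter Slc2a1 by -0.12 ± 0.10. Single arrays carried much of each value, which was -0.16 for Adm without rAAV-YFP 2, -0.17 for Lep without rAAV-Lmo3 1 and -0.05 for Slc2a1 without rAAV-YFP 1. Ldha (0.25 ± 0.15) and Bnip3 (0.12 ± 0.20), a pair of common hypoxia markers, overlapped between the groups, with Bnip3 at -0.04 without rAAV-Lmo3 1 and Ldha at 0.12 without rAAV-YFP 2 and 0.42 without rAAV-YFP 3. The list therefore had no shared direction. Without rAAV-YFP 2 the differences of Pgk1, Hilpda and Ndrg1 were 0.20, 0.46 and -0.20.

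**Figure D4:**
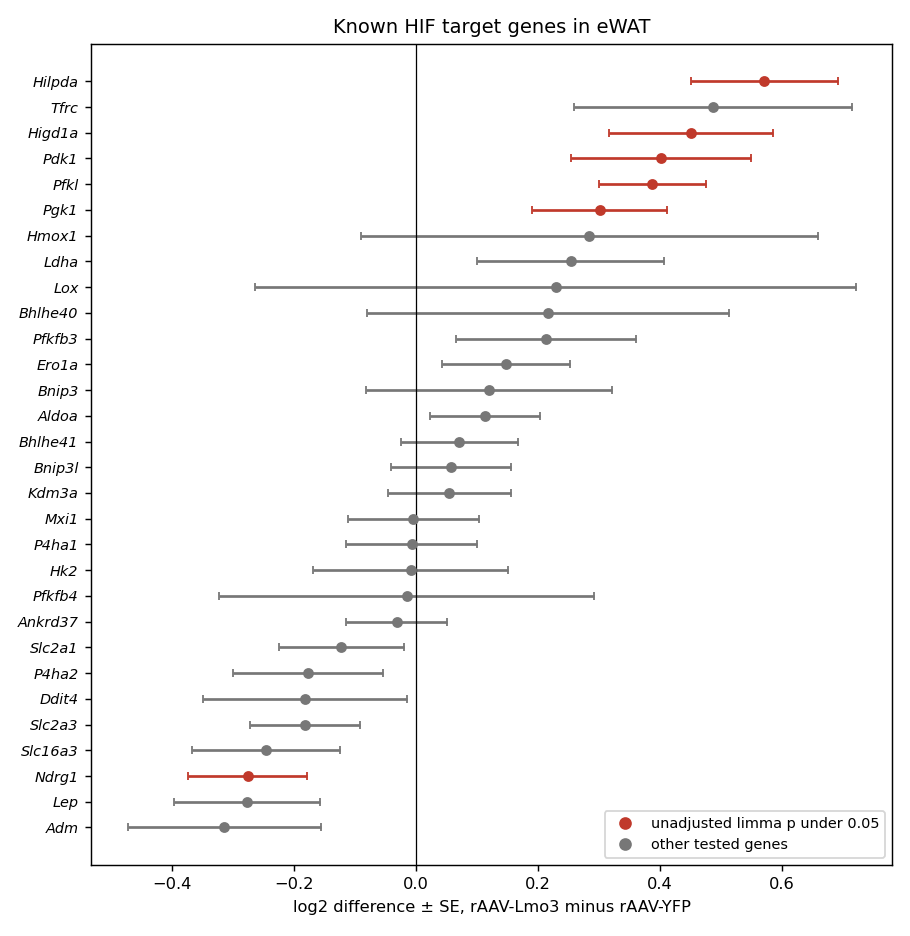
Log2 difference, rAAV-Lmo3 minus rAAV-YFP (horizontal axis, log2 units), with SE as bars (n = 3 pools per group), of the 30 tested HIF target genes, ordered by size. Red marks the 6 genes with an unadjusted limma p under 0.05, which are 5 on the higher side led by Hilpda at 0.57 and Ndrg1 on the lower side at -0.28.

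Other genes that steer vessel growth, most of them for secreted factors, lay mainly on the lower side. Of 17 tested genes 3 had a log2 difference above 0 and 14 below, with a median of -0.18, while 50.3% of all tested genes lay above 0. Among the 14, Serpinf1 (-0.0092) and Fgf1 (-0.014) lay near 0. For both, and for Pdgfb, Ecm1 and Sparc, rAAV-Lmo3 1 read lowest of all arrays. The other rAAV-Lmo3 pools lay within or above the control range for these genes. The split was not recomputed without that array. At the unadjusted level 0 were higher and 3 lower by limma, or 17.6% against 4.66% of all genes, and 0 passed after adjustment. Timp3, a matrix-bound protease inhibitor that also blocks binding of VEGF to KDR, read 2467, 2891 and 2719 in rAAV-YFP and 1758, 1708 and 1643 in rAAV-Lmo3. These groups were far apart, with a log2 difference of -0.66 ± 0.09, and an adjusted p of 0.669 by limma. Thbs1, an inhibitor of angiogenesis, read 3061, 3479 and 1738 against 1650, 1595 and 1529. Its log2 difference was -0.73 ± 0.25, with 2 of 3 control pools high and rAAV-YFP 3 near the rAAV-Lmo3 level. Fgf2, an endothelial growth factor, read 373, 722 and 420 against 360, 294 and 296, a difference of -0.62 ± 0.25 that was -0.33 without rAAV-YFP 2. The inhibitors Timp3 and Thbs1 and the growth factor Fgf2 thus lay on the same side.

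Cell type markers were set beside these values, because tissue RNA cannot tell fewer cells of a type from less RNA per cell. The tissue read as fat, with Adipoq at intensities from 8014 to 10809 on all arrays, and the summed level of 11 adipocyte markers covered 70281 to 84291 in rAAV-YFP and 68986 to 85514 in rAAV-Lmo3 (exact two-sided permutation p = 0.8, where the smallest possible is 0.1). All 16 blood endothelial markers were tested. They had 13 log2 differences below 0, a median of -0.19, and at the unadjusted level 0 higher and 3 lower genes (Esam, Robo4 and Ptprb), or 18.8% against 4.66% of all genes, with 0 after adjustment. Without rAAV-YFP 2 these differed by -0.29 (Esam), -0.36 (Robo4) and -0.22 (Ptprb). Their summed level was 16786 to 21671 in rAAV-YFP and 15022 to 18294 in rAAV-Lmo3, a log2 difference of -0.21 ± 0.13 (exact two-sided permutation p = 0.2). It was -0.11 without rAAV-YFP 2, where the level was highest, and -0.045 without both rAAV-YFP 2 and rAAV-Lmo3 1. Angpt2, Flt1, Tie1 and Tek, which endothelial cells express, lay on the same side as these markers, although Tek was at 0.023 without rAAV-YFP 2. Without both arrays they were at -0.15 (Angpt2), -0.05 (Flt1), -0.07 (Tie1) and 0.065 (Tek). Of the other receptors named above, Flt4 (-0.15) also lay below 0, while Kdr (-0.01) and Nrp1 (-0.02) lay near 0. The part of the endothelial level in all these differences was not tested. Markers of smooth muscle and pericytes, cells known to make Angpt1, summed to 8384 to 10548 in rAAV-YFP and 6149 to 9632 in rAAV-Lmo3, a log2 difference of -0.20 ± 0.22 that was 0.0012 without rAAV-Lmo3 1.

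Macrophage markers varied more between pools than between groups. Their sum over 14 genes was 40336, 18602 and 29227 in rAAV-YFP and 22160, 34132 and 38915 in rAAV-Lmo3 (exact two-sided permutation p = 0.7). The log2 difference of the sum was 0.14 ± 0.41, and -0.15 without rAAV-YFP 2. Of the 14 genes 12 had a log2 difference above 0 and 2 below, with a median of 0.11. At the unadjusted level 0 were higher and 1 lower by limma (Mertk, -0.27 ± 0.10), or 7.14% against 4.66% of all genes, and 0 passed after adjustment. The arrays rAAV-YFP 2 and rAAV-Lmo3 1, which had the lowest macrophage sums, also had the lowest mean correlations with the other arrays, 0.988 and 0.986. In both of them 7 of the 10 genes deviated from the rest of their group in the same direction, with Vegfb, Epas1, Egln1, Egln3 and Vegfa higher and Vegfc and Hif1a lower. Angpt1, Angpt2 and Pgf deviated in opposite directions. Over all tested genes the deviations of this pair of arrays from their group means correlated at 0.68. The count of 7 is therefore no result about the 10 genes. The part of tissue makeup in these deviations was not tested.

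**Figure D5:**
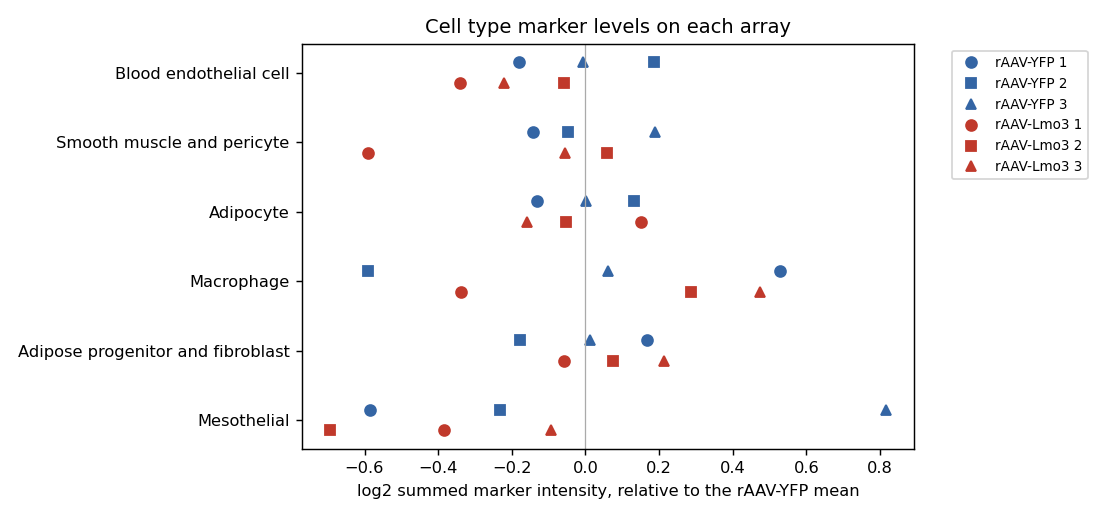
Summed intensity of cell type markers on each array (horizontal axis, log2 units, control mean at 0), with blue for rAAV-YFP and red for rAAV-Lmo3. The groups overlap for all 6 lists shown, and macrophage markers are lowest on rAAV-YFP 2 and rAAV-Lmo3 1.

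The genes whose profile over the 6 arrays was most like that of a member were listed as a description. For Angpt1 these were Pomp (r = 0.993), Atg101 (r = 0.991) and Dixdc1 (r = 0.988), for Hif1a Rbm18 (r = 0.995), 4931406C07Rik (r = 0.988) and Nabp1 (r = 0.986), and for Vegfa Ppp1r3c (r = 0.980), Nlrx1 (r = 0.977) and Pomt1 (r = 0.970). The gene most like each of the other tested members was Zfp879 for Epas1 (r = 0.990), Ppm1a for Egln1 (r = 0.999), Clstn1 for Vegfb (r = 0.993), Tpra1 for Vegfc (r = 0.997), Vps52 for Angpt2 (r = 0.995) and Cnot4 for Pgf (r = 0.990). A Pearson r over 0.95 was reached by 10 genes for Vegfa, 26 for Hif1a and 23 for Angpt1. With 6 arrays and 11963 genes such values arise readily, and all profiles share the same arrays. Lmo3 itself read 24 to 26 on all 6 arrays, far below the limit for dim genes, so its probe set gave no check of the group labels.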

How the data were processed

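Affymetrix mouse Gene ST arrays measured total RNA of epididymal fat, with 3 arrays per group and RNA of 2 mice on each. Groups and replicate numbers follow the sample titles. The treatment protocol in the labels names rAAV-LacZ as control where the titles name rAAV-YFP, and the titles were used. The deposited intensity values were made by the authors with RMA in Affymetrix Expression Console 1.1, and are linear values rounded to integers. Of 35556 probe sets, 21789 carried exactly 1 gene symbol, 1621 several and 12146 none. GEO's platform annotation gave the symbols, and a RefSeq table (GRCm38.p6) matched to 21766 of the 21789 changed 0 of them.

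Values were taken as log2, each symbol was represented by its brightest probe set, and 7975 of 19938 genes, the dimmest 40%, were not tested. The remaining 11963 genes entered a two-sided limma fit (lmFit, eBayes, version 3.58.1 under R 4.3.3), with Benjamini-Hochberg adjustment at 0.05. The fit was tested on simulated data. SEs of tested genes are those of the moderated difference, and confidence intervals are unadjusted. Summed marker levels are sums of intensity over markers that passed the limit for dim genes, compared by an exact two-sided permutation test of their log2 values. The methods' t-test called 0 genes after adjustment and 555 at an unadjusted p under 0.05, with 2 of the 9 tested members. Replicates are separate pools, and p-values refer to the variation among them. The number of arrays limits the precision.

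The 10 genes and all lists were chosen with earlier results of these data known. The named genes are the 10 members, the 3 tested genes with the smallest p of each pathway list, and up to 3 genes most alike to each tested member. Further pathway genes were named after their values were seen. Alternatives were median centring, a second quantile normalization, array weights, a trended robust prior, the methods' t-test, a replicate block, leaving out each array, other filters and averaging probe sets. Leaving out rAAV-YFP 2 and rAAV-Lmo3 1 together was added after the data had been seen.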

Additional observations from a re-analysis of the deposited data

How the results depend on the processing

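No gene passed after adjustment under any of the 16 alternatives to the reported fit. At the unadjusted level the reported fit had 271 genes on the higher and 287 on the lower side. Leaving out single arrays gave 122 (without rAAV-YFP 2) to 404 higher and 140 (without rAAV-Lmo3 3) to 339 lower genes, without a filter 458 were lower because more genes were tested, and centring on the median gave 317 higher and 216 lower. Deviations of same-numbered arrays from their group means correlated at -0.55, -0.40 and 0.26. Deviations from a mean of 3 arrays depend on one another, so these values cannot settle whether the replicate numbers pair the arrays. The replicate block gave 216 higher and 237 lower genes, with p of 0.0973 for Hif1a and 0.00406 for Angpt1, and no array correlated best with the one of its own number. Hif1a, Vegfb, Angpt1, Angpt2 and Pgf kept their direction in all settings, and Egln3 in all that were run for it. The differences ranged with single arrays left out from -0.32 to 0.0032 for Epas1, -0.010 to 0.10 for Egln1, -0.081 to 0.26 for Vegfa, -0.16 to 0.14 for Vegfc, -0.26 to 0.15 for Angptl4, -0.038 to 0.31 for Bnip3, -0.18 to 0.14 for Kdr, -0.052 to 0.029 for Nrp1, -0.16 to 0.023 for Tek, -0.12 to 0.16 for Vegfd and -0.10 to 0.12 for Vhl. With array weights the sign turned for Vegfc (0.066), Angptl4 (0.052), Kdr (0.14), Nrp1 (0.0084), Tek (0.0058) and Vegfd (0.077). Without both arrays that stood apart it turned for Vegfc (0.058), Angptl4 (0.051), Kdr (0.20), Nrp1 (0.0073), Tek (0.065) and Vegfd (0.061). With centring it turned for Kdr (0.011) and Vegfd (0.0036), and with a second quantile normalization for Vhl (-0.0095). The cause was not tested.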

Other observations

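Further cell types that epididymal fat can hold gave these values. Of 6 mesothelial markers tested 6 had a log2 difference below 0, with a median of -0.41, and their summed intensity was 844 to 2232 in rAAV-YFP and 783 to 1187 in rAAV-Lmo3 (exact two-sided permutation p = 0.6), where the highest value came from rAAV-YFP 3. Without rAAV-YFP 3 the log2 difference of the sum was 0.018. Among these markers Gpm6a passed the limit for dim genes only through its rAAV-YFP values, with an rAAV-Lmo3 mean of log2 6.81, so its sign is a description. The summed level of 9 adipose progenitor and fibroblast markers was 16260 to 20647 in rAAV-YFP and 17665 to 21316 in rAAV-Lmo3 (exact two-sided permutation p = 0.6). Smooth muscle and pericyte markers gave an exact two-sided permutation p of 0.5. Only 2 lymphatic endothelial markers, Lyve1 and Pdpn, were bright enough to sum, at 1090 to 1365 in rAAV-YFP and 1013 to 1486 in rAAV-Lmo3 (exact two-sided permutation p = 0.9). Only 2 T and B cell markers were bright enough, at 398 to 585 in rAAV-YFP and 337 to 424 in rAAV-Lmo3 (exact two-sided permutation p = 0.5). Of this pair Cd79b differed by -0.04 ± 0.18. Cd3e differed by -0.42 ± 0.17 with groups that did not overlap, and by -0.27 without rAAV-YFP 3. By limma its unadjusted p was 0.0428 and its adjusted p 0.970. Of 9 epididymis and skeletal muscle markers 3 were bright enough, all of muscle, at 761 to 1206 in rAAV-YFP and 731 to 1041 in rAAV-Lmo3 (exact two-sided permutation p = 0.8).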
